A study of Callithrix jacchus and Rattus norvegicus and Loxodonta africana with 31 samples.

Results

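Fatty acid binding proteins are small cytosolic proteins that carry long-chain fatty acids and related lipids from the plasma membrane to the sites where they are oxidised, stored or sensed by nuclear receptors. Each member of the family is known by the organ in which it was found, so a mammal holds a liver, an intestinal, a heart, an adipocyte, an epidermal, an ileal, a brain and a testis form. The genes described here are FABP1, FABP2, FABP3, FABP4, FABP5, FABP6, FABP7 and FABP9, in rodent spelling Fabp1, Fabp2, Fabp3, Fabp4, Fabp5, Fabp6, Fabp7 and Fabp9. They were taken by gene name, without regard to level, from 3 tables of RNA abundance, 1 each for the marmoset, the rat and the tammar wallaby. The name column gave 15 entries among 54059 genes, 8 in the rat, 6 in the wallaby and 1 in the marmoset, where only FABP6 carried its symbol. The other 7 marmoset members were listed under names made of an NCBI gene number and were matched by that number to the RefSeq gene table of assembly calJac240_pri, which brings the total to 22. All 7 lay on the same chromosome in both sources. FABP7 and FABP9 were not found by name in the wallaby table.

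The study sequenced polyadenylated RNA from tissues of several mammals, and its title concerns the genes of the Y chromosome. Marmoset and rat gave heart, kidney, liver, frontal cortex and cerebellum of 1 female and 1 male each, an ovary and a testis, and the wallaby gave liver and testis of 1 male. Age, strain and treatment are not given in the labels. The tables hold 1 column each for heart, kidney, liver and brain by sex. The brain columns carried markers of both regions (TBR1 of cortex, GABRA6 and CBLN1 of cerebellum), so they are called brain without a region. The marmoset testis column is the authors' value for 3 samples of 2 individuals and has no SD or n. Levels are in FPKM, a fragment count scaled by transcript length and library size, so that levels of different genes within a column can be compared. The columns do not sum to the same total. Summed FPKM ran from 210712 in the female marmoset brain to 1.69e+06 in the male marmoset liver. In the rat it ran from 457975 in the ovary to 3.55e+06 in the male heart. Levels, family totals and percentages compared across columns depend on that scaling, for which no method is stated. The depth behind the levels is unknown, and a listed 0 may stand for an estimate that failed, since ALB, which encodes albumin, is at 0 in all 4 marmoset and rat livers. In bulk tissue, fewer cells of a type and less RNA per cell cannot be told apart.

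Organ markers were present where the labels placed them. All 8 cardiac muscle genes were at 1 FPKM or more in both rat hearts and the female marmoset heart, and 6 of 8 in the male marmoset heart, where the other 2 were listed at 0. All 7 kidney tubule genes in the marmoset and all 6 in the rat table were at 1 FPKM or more in both kidneys of that species, and the 8 hepatocyte genes summed to 43873 to 78185 FPKM in the marmoset and rat livers. The marmoset library labelled male kidney was low in Y-linked genes. Of the 6 Y-linked genes at 1 FPKM or more in the heart, liver and brain columns labelled male, 1 reached that level in it (DDX3Y at 4.71 FPKM) and 2 were listed at 0. All Y-linked genes were listed at 0 in every female column, so it matched neither the male nor the female columns. All 20 marmoset tissue results given here stayed on the same side of the threshold without that library. The marmoset testis column was also low in genes of late germ cells: DDX4, a germ cell helicase, stood at 29.8 FPKM, but TNP1, ACRV1 and ODF1 of spermatids were at 0.169, 0.0346 and 0.0542 FPKM.

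One member supplied most of the family's RNA in most organs. FABP1 made up 96.0% and 97.9% of the summed family FPKM in the female and male marmoset liver, 97.9% and 97.1% in the rat livers and 97.2% in the wallaby liver. FABP3 led both hearts of both species, at 73.9% and 69.5% in the marmoset and 92.0% and 94.8% in the rat. The kidneys differed between the species, with FABP1 at 87.9% and 93.5% in the marmoset and FABP3 at 70.7% and 93.6% in the rat. Brain was shared among several members: FABP7 led at 64.3% and 61.0% in the marmoset and at 46.4% in the female rat, while FABP3 led at 46.9% in the male rat. In the gonads FABP9 held 94.3% of the rat testis sum and FABP3 51.1% of the rat ovary sum, while FABP3 led the marmoset testis at 88.4% and FABP5 the wallaby testis at 85.0%. The family total ranged from 19.0 FPKM in marmoset ovary to 10339 FPKM in the liver of the female rat.

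**Figure D1:**
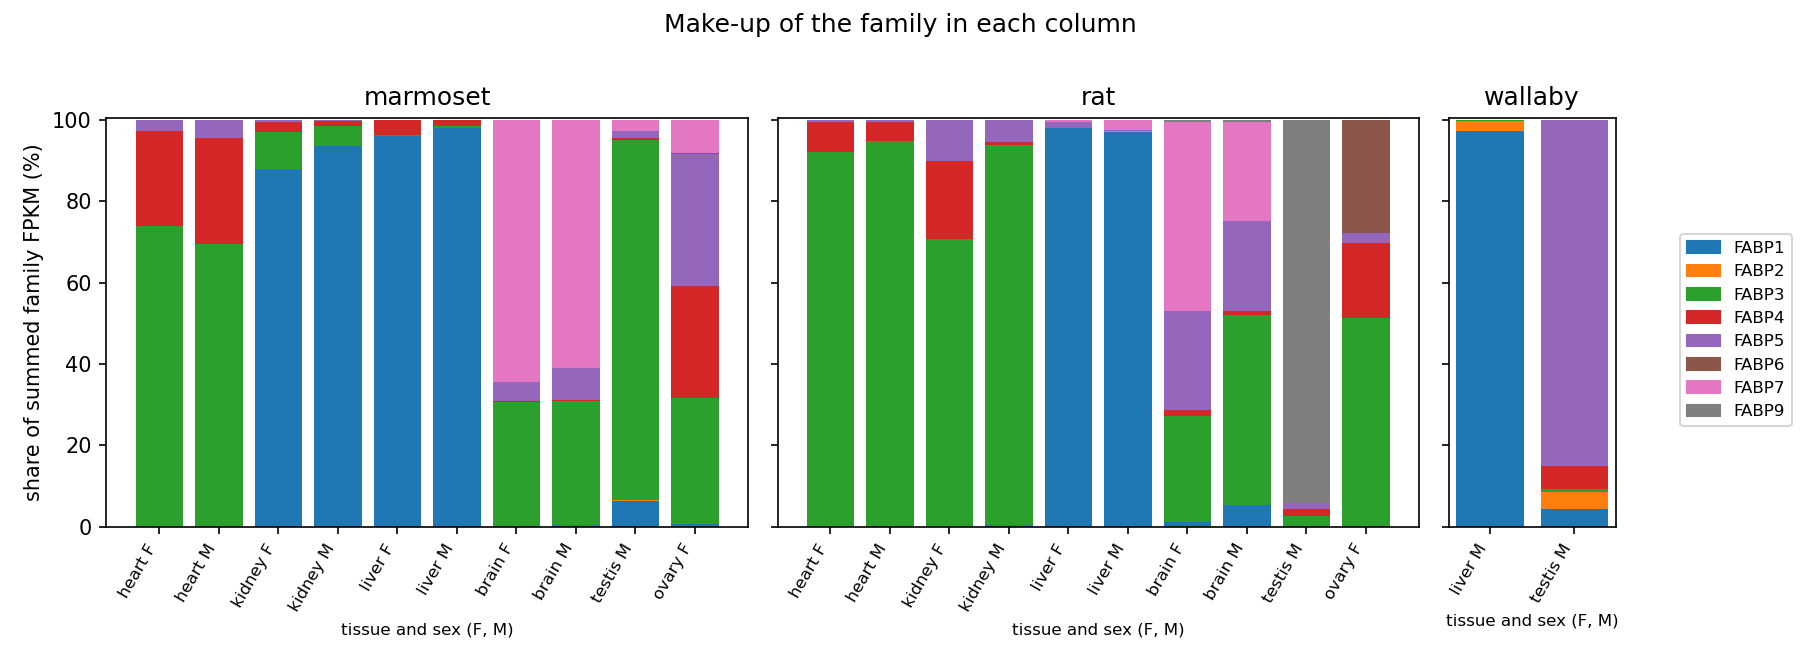
Share of the summed family FPKM (y axis, %) held by each member (colours) in every column with values (x axis, tissue and sex) of marmoset, rat and wallaby. FABP1 (blue) fills the livers at 96.0% to 97.9%, and it fills the marmoset but not the rat kidneys.

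FABP1, the liver form, is among the most abundant proteins of the hepatocyte cytosol and hands fatty acids to the receptor PPARA. In the marmoset it stood at 4401 FPKM in the female and 2179.8 FPKM in the male liver, at 264 and 479 FPKM in kidney, at 0.186 and 1.47 FPKM in heart, at 0.312 and 0.989 FPKM in brain, at 4.64 FPKM in testis and at 0.123 FPKM in ovary. Both livers lay above both kidneys, and both kidneys above every other column. In the rat it stood at 10127 and 5259.9 FPKM in the female and male liver, at 0 and 0.733 FPKM in kidney, at 2.03 and 5.49 FPKM in heart, at 1.52 and 4.56 FPKM in brain, at 1.18 FPKM in testis and at 0.819 FPKM in ovary. Here liver alone was high. Against the mean of the other 3 tissues, liver was higher by 8.28 ± 0.40 log2 units in the marmoset (estimate ± SE on log2(FPKM + 1), limma adjusted p = 2.16e-05) and by 11.35 ± 0.42 in the rat (limma adjusted p = 4.12e-06). Wallaby liver, at 6829 FPKM against 1.27 FPKM in testis, had no replicate.

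Kidney separated the species for FABP1. The marmoset kidneys were higher than the mean of heart, liver and brain by 4.12 ± 0.40 (limma adjusted p = 0.000537), and by 3.80 ± 0.59 without the library labelled male kidney (limma adjusted p = 0.0141). The rat kidneys were lower by 5.23 ± 0.42 (limma adjusted p = 0.000197). In the rat that mean includes liver, at 5260 to 10127 FPKM, and the other non-liver tissues were called lower too. Rat heart was at -2.90 ± 0.42 and rat brain at -3.22 ± 0.42 against the mean of their other 3 tissues. The tables were normalized separately and the difference between the species was not tested. The kidney level was then set against the liver level of the same sex, for FABP1 and for the hepatocyte genes. FABP1 in marmoset kidney stood at 6.01% of its liver level in the female and 22.0% in the male. The 7 hepatocyte genes above 0 in the female liver lay between 0.00117% and 1.97% there, the highest being SERPINA1, and the 6 above 0 in the male liver between 0.0423% and 0.937%. In the rat kidneys FABP1 was at 0% and 0.0139% of liver, and the 7 hepatocyte genes at 0.000253% to 0.233%. Summed FPKM was 336485 in the female and 611025 in the male marmoset kidney, against 951576 and 1.69e+06 in the livers. The percentages of liver therefore depend on how the columns were scaled, which moves FABP1 and the hepatocyte genes of a column alike.

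The traces of FABP1 in heart and brain lay among those of the hepatocyte genes, except in the male marmoset heart, where FABP1 was below all 6. In marmoset heart FABP1 was at 0.00424% of liver in the female and 0.0676% in the male, against medians of 0.00964% and 0.123% for the hepatocyte genes. In rat heart it was at 0.02% and 0.104%, against medians of 0.0218% and 0.0554%. The male value was the higher in heart and brain of both species for FABP1. The summed hepatocyte genes were also higher in the male in marmoset heart (279 against 25.1 FPKM), marmoset brain (173 against 94.1) and rat heart (188 against 81.9), but not in rat brain (89.4 against 620 FPKM), where TTR and TF, which brain tissue itself expresses, were higher in the female. The part of liver RNA in these traces was not tested.

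**Figure D2:**
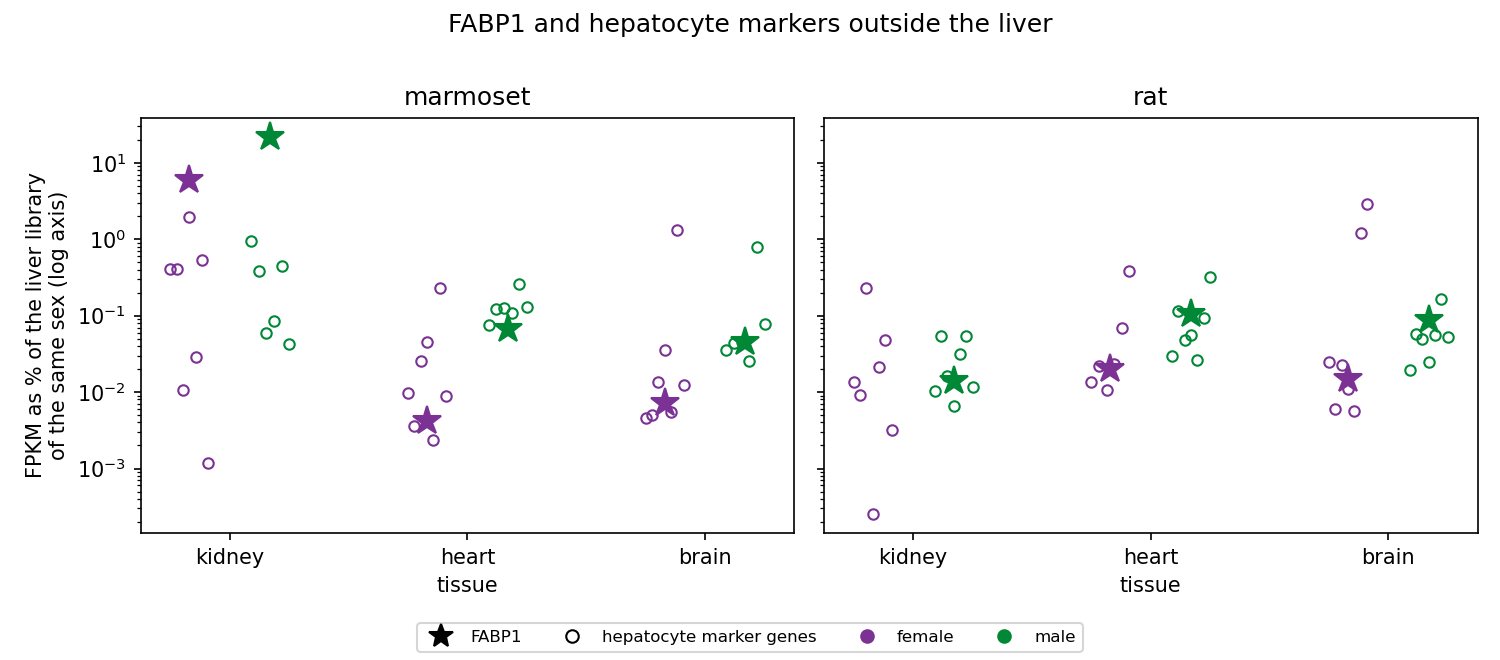
FPKM in kidney, heart and brain as a percentage of the liver library of the same sex (log y axis), for FABP1 (stars) and the hepatocyte marker genes with a liver value above 0 (circles), female in purple and male in green. Values of 0 are not drawn. In marmoset kidney FABP1 lies at 6.01% and 22.0%, above all marker genes, and elsewhere it lies among or below them.

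FABP2, the intestinal form, serves the absorptive cells of the small intestine, an organ that was not sampled. In the marmoset it was listed at 0 in 9 of 10 columns and stood at 0.142 FPKM in testis. In the rat it stood at 12.1 FPKM in the female and 5.12 FPKM in the male liver and at no more than 0.0655 FPKM elsewhere, so both livers lay above all other columns. Rat FABP2 passed the filter on low values through the livers alone, so the difference of 3.14 ± 0.25 log2 units for liver is given as a description. The wallaby liver held 179.9 FPKM against 1.25 FPKM in testis. Among the enterocyte markers in these livers, MTTP, which loads lipid onto lipoproteins in hepatocytes too, was at 88.2 and 65.4 FPKM in the rat, while SI, ALPI and CDX1, of the intestinal epithelium, were listed at 0 in both rat livers.

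FABP6, the ileal form, binds bile acids and is known from the last part of the small intestine. It stood at 214 FPKM in the rat ovary and at no more than 0.336 FPKM in the other 9 rat columns, a gap of 7.33 log2 units above the highest heart, kidney, liver or brain column. In the rat ovary 0.635% of 15755 genes lay at least 2 log2 units above all of those columns, and FABP6 was the 1 family member among them. The 6 enterocyte markers summed to 0.0826 FPKM in that ovary, whereas all 6 genes of granulosa cells and ovarian stroma were at 1 FPKM or more, with INHA, a subunit of inhibin, at 809 FPKM and STAR, which moves cholesterol into mitochondria for steroid synthesis, at 459 FPKM. The marmoset ovary held FABP6 at 0.0298 FPKM, with FSHR, the receptor of follicle-stimulating hormone, at 25.7 FPKM and STAR at 39.4 FPKM. In the remaining marmoset columns FABP6 reached at most 0.0803 FPKM, and in the wallaby liver it was at 0.304 FPKM.

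FABP3, the heart form, supplies fatty acids to the mitochondria of muscle. In the marmoset it stood at 1960 FPKM in the female and 1141 FPKM in the male heart, at 73.3 and 60.9 FPKM in brain, at 27.2 and 25.2 FPKM in kidney, at 13.3 and 13.6 FPKM in liver, at 64.2 FPKM in testis and at 5.88 FPKM in ovary. The order heart, brain, kidney, liver held without overlap. In the rat it stood at 5984 and 5891 FPKM in heart, at 230.1 and 209 FPKM in kidney, at 33.9 and 41.2 FPKM in brain, at 4.24 and 4.70 FPKM in liver, at 54.4 FPKM in testis and at 391 FPKM in ovary. There the order was heart, kidney, brain, liver, again without overlap, so brain and kidney traded places between the species. Heart was higher by 5.65 ± 0.22 in the marmoset (limma adjusted p = 1.85e-05) and by 7.37 ± 0.21 in the rat (limma adjusted p = 3.54e-06). Rat kidney was higher than the mean of the other 3 tissues by 1.03 ± 0.21 (limma adjusted p = 0.00958) and by 0.29 when brain was left out (limma adjusted p = 0.368). The call also ended without the female rat brain (0.99, under the threshold of 1) or the female kidney (limma adjusted p = 0.0895). Marmoset kidney was lower by 2.06 ± 0.22 (limma adjusted p = 0.000757) against a mean that includes heart, though both kidneys lay above both livers. Marmoset brain did not pass, at -0.30 ± 0.22 (limma adjusted p = 0.265), and its sign turned to 0.83 under quantile normalization and 0.08 under median scaling. Of the 4 somatic tissues liver was lowest in both species, by -3.28 ± 0.22 and -6.08 ± 0.21, and in the wallaby FABP3 was at 8.89 FPKM in liver and 0.201 FPKM in testis.

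FABP4, the adipocyte form, is a standard marker of fat cells and is also made by capillary endothelium and macrophages. In the marmoset it stood at 621 and 427 FPKM in the female and male heart, at 163 and 30.0 FPKM in liver, at 7.26 and 6.25 FPKM in kidney, at 0.537 and 0.469 FPKM in brain, at 0.357 FPKM in testis and at 5.22 FPKM in ovary. In the rat it stood at 490.3 and 291 FPKM in heart, at 62.4 and 1.36 FPKM in kidney, at 5.75 and 1.80 FPKM in liver, at 1.77 and 0.773 FPKM in brain, at 33.8 FPKM in testis and at 142 FPKM in ovary. Both hearts exceeded all other somatic columns in both species, by 5.78 ± 0.45 in the marmoset (limma adjusted p = 0.000213) and 6.27 ± 0.78 in the rat (limma adjusted p = 0.000838). The 6 adipocyte genes summed to 8.56 and 92.1 FPKM in the marmoset hearts, with CFD, the protease adipsin, at 1.28 and 73.2 FPKM, and to 24.6 and 23.8 FPKM in the rat hearts, with the lipase gene LIPE at 22.3 and 20.1 FPKM. ADIPOQ, which encodes the fat cell hormone adiponectin, was at 1.16 and 2.38 FPKM in the marmoset hearts and at 0 and 0.0149 FPKM in the rat hearts. The 7 endothelial genes summed to 205 and 242 FPKM in the marmoset hearts and 226 and 239.7 FPKM in the rat hearts, above every other column of either species. The part of these cells in the heart level of FABP4 was not tested.

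FABP4 in liver went in opposite directions. Marmoset liver was higher by 1.97 ± 0.45 (limma adjusted p = 0.0103), a call that ended when brain was left out (0.17, limma adjusted p = 0.788) or when the female liver was (0.91, under the threshold of 1). Rat liver was lower by 2.32 ± 0.78 (limma adjusted p = 0.0376), and this call ended without the animal term (limma adjusted p = 0.116). It also ended without the male brain (0.0717), the male heart (0.0820), the male liver (0.110) or the female liver (0.216), under quantile normalization (0.0838) and with no filter on low values (0.0914), each a limma adjusted p. In rat kidney the 2 libraries lay so far apart that the contrast, -0.33 ± 0.78, did not pass (limma adjusted p = 0.781). It became -2.27 without the female kidney (limma adjusted p = 0.00605) and 1.60 without the male kidney (limma adjusted p = 0.0189). Brain was low in both species, by -5.45 ± 0.45 and -3.62 ± 0.78, the latter not passing without the female rat brain (limma adjusted p = 0.0735). Wallaby liver and testis held 3.42 and 1.68 FPKM.

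FABP5, the epidermal form, is made in many cell types, and mammalian genomes are known to hold processed copies of it. The sources used here do not say how reads shared with such copies were counted, and its level is uncertain. In the marmoset it stood at 71.1 and 71.0 FPKM in the female and male heart, at 11.4 and 15.4 FPKM in brain, at 5.31 and 4.06 FPKM in liver, at 1.89 and 1.81 FPKM in kidney, at 1.37 FPKM in testis and at 6.18 FPKM in ovary. The 4 somatic tissues did not overlap, and heart was higher by 3.56 ± 0.20 (limma adjusted p = 7.47e-05). In the rat it stood at 143 and 8.75 FPKM in liver, at 28.7 and 23.1 FPKM in heart, at 31.6 and 19.4 FPKM in brain, at 33.0 and 12.0 FPKM in kidney, at 27.5 FPKM in testis and at 18.1 FPKM in ovary. All 4 rat tissues overlapped, no contrast passed (limma adjusted p from 0.437 to 0.973), and each changed its sign under another scaling or without 1 library. Without the male liver, rat liver was higher by 2.17 (limma adjusted p = 0.0102) and rat kidney was at -1.0 (limma adjusted p = 0.0488). FABP5 was the 1 tested member of the rat with no call in any tissue. In the wallaby testis it stood at 24.9 FPKM against 5.96 FPKM in liver, a distance of 1.89 log2 units. That distance was 2.04 with 0.1 in place of 1 added to FPKM. Genes with at least 5 FPKM in the higher tissue were counted, which left out FABP4 and FABP6 of the 6 wallaby members. FABP1, FABP2 and FABP3 lay at least 2 units higher in liver, as did 36.2% of the 8915 genes counted. No member lay that far higher in testis, where 16% of the genes counted did.

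FABP7, the brain form, is a marker of radial glia and astrocytes and binds docosahexaenoic acid. In the marmoset it stood at 155 FPKM in the female and 122 FPKM in the male brain, at 1.80 FPKM in testis, at 1.56 FPKM in ovary and at no more than 0.698 FPKM in any other column. It passed the filter on low values through brain alone, so the difference of 6.88 ± 0.20 log2 units for brain is given as a description. In the rat it was high in 2 organs: liver, at 46.7 FPKM in the female and 138 FPKM in the male, and brain, at 60.1 and 21.3 FPKM. The other 6 rat columns held at most 0.133 FPKM. Rat FABP7 passed the filter on low values through these 2 organs alone. The differences of 4.58 ± 0.50 log2 units for liver and 3.06 ± 0.50 for brain are therefore given as a description. The libraries of the 2 organs overlapped. In the marmoset livers FABP7 was at 0 and 0.140 FPKM, much as in the marmoset kidneys, at 0.164 and 0 FPKM. The 6 neuron genes summed to 8.01 and 0.193 FPKM in the female and male rat liver, against 1064 and 1403 FPKM in the rat brains. The 6 cerebellar neuron genes summed to 17.3 and 16.5 FPKM in the livers. CBLN3 was the 1 gene of these 6 that reached 1 FPKM in either liver, and the other 5 were listed at 0 in the male liver. The 6 astrocyte genes summed to 106 and 116 FPKM there, of which ALDH1L1, a folate enzyme also made by hepatocytes, held 90.7 and 104 FPKM, while GFAP was at 2.20 and 0.884 FPKM and AQP4 at 0.524 and 0.0107 FPKM. All 6 macrophage genes were at 1 FPKM or more in both rat livers, summing to 73.5 and 90.2 FPKM. MARCO, a receptor of resident liver macrophages, was at 1.22 FPKM in the female and 4.68 FPKM in the male. In the female and male marmoset livers the 5 macrophage genes summed to 689.9 and 679.5 FPKM, with FABP7 at 0 and 0.140 FPKM. The part of these cell types in the rat liver level of FABP7 was not tested.

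FABP9, the testis form, belongs to the perforatorium, a structure under the acrosome of the rodent sperm head. In the rat testis it stood at 1929.7 FPKM, 10.01 log2 units above the highest somatic column, in a library in which 12% of 17208 genes lay at least 2 units above all somatic columns. No member did so in the marmoset testis (3.73% of genes) or the marmoset ovary (0.602%). The other 9 rat columns held at most 0.875 FPKM. FABP9 was at 0.845 FPKM in the female rat heart, 0.875 FPKM in the female liver and 0.757 FPKM in the female brain. There ODF1, of the sperm tail, stood at 1.79, 1.53 and 1.13 FPKM. Both genes were listed at 0 in the male rat liver. In the male rat kidney the 7 germ cell genes summed to 6.42 FPKM, but FABP9 was at 0.0936 FPKM. That sum was above those of the female heart (4.46 FPKM) and female brain (3.17 FPKM). The source of these traces was not tested. In the marmoset FABP9 was listed at 0 in 9 of 10 columns and stood at 0.0832 FPKM in testis, the column with low spermatid genes named above. Absence of FABP9 from the marmoset testis and absence of the cells that would express it cannot be told apart.

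FABP12 and PMP2 are close relatives outside the named set. FABP12 was also highest in testis, at 209 FPKM in the rat testis (6.61 log2 units above all somatic columns), at 0.362 FPKM in the marmoset testis and at 1068 FPKM in the wallaby testis against 4.20 FPKM in the wallaby liver. All 5 germ cell genes in the wallaby table were at 1 FPKM or more in testis, where they summed to 82489 FPKM, and they summed to 93.4 FPKM in the wallaby liver. PMP2, the lipid carrier of peripheral myelin, reached 0.55 and 0.828 FPKM in the marmoset brains and 0.363 and 0.0233 FPKM in the rat brains. It was at most 0.05 FPKM in the other columns of both species. The marmoset table places FABP4, FABP5, FABP9, FABP12 and PMP2 on chromosome 16. These 5 neighbours were highest in different organs: FABP4 and FABP5 in heart, PMP2 in brain, and FABP9 and FABP12 in testis, the last 3 of them under 1 FPKM.

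**Figure D3:**
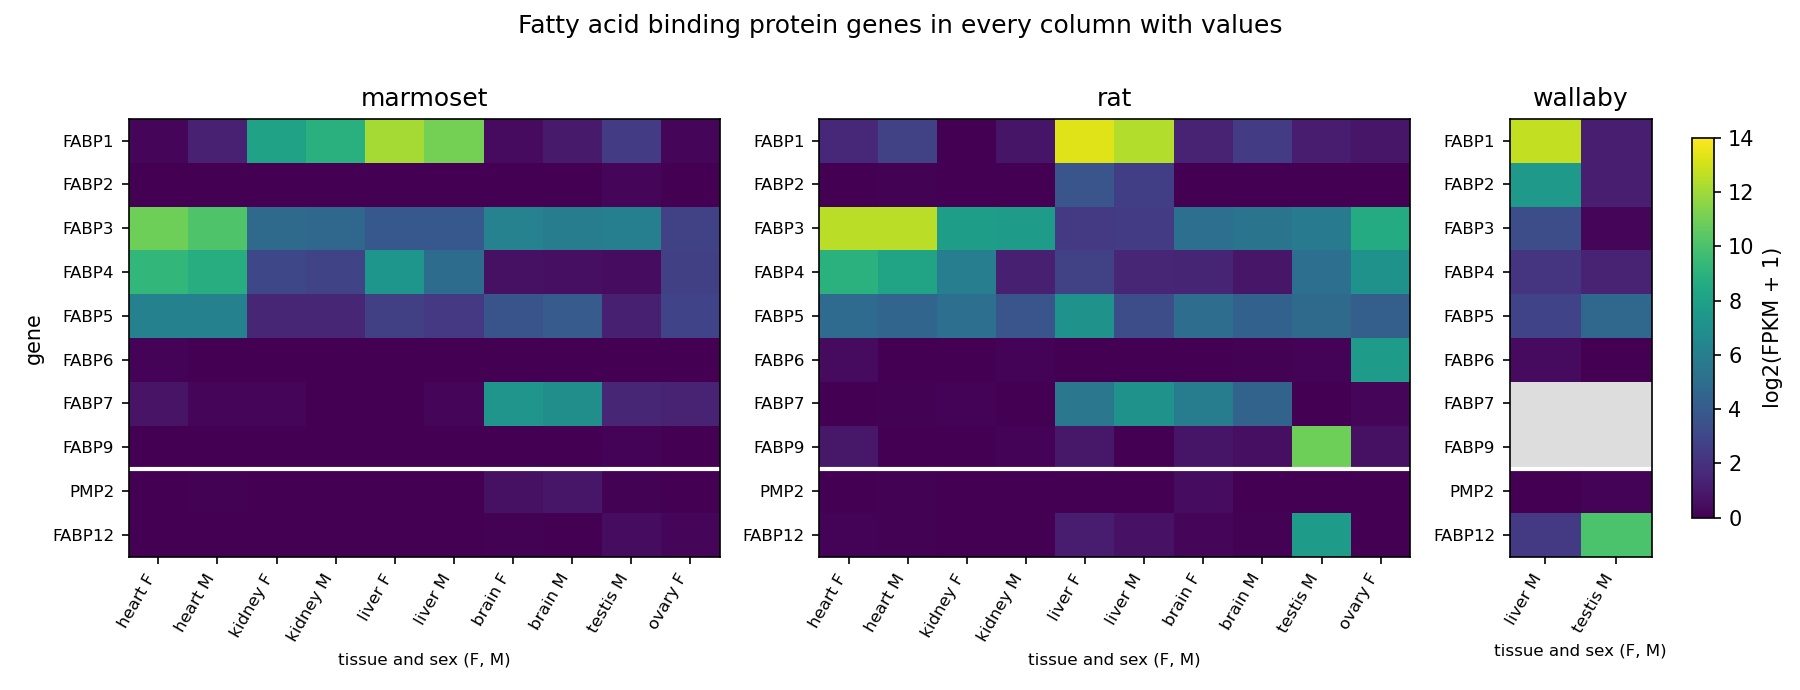
Log2(FPKM + 1) of the 8 members and, under the white line, of PMP2 and FABP12 (y axis) in every column with values (x axis, tissue and sex). Grey marks genes not found by name in the wallaby table. FABP1 is high in every liver and in the marmoset kidneys, FABP3 is highest in the hearts and also reaches 391 FPKM in rat ovary, and FABP9 is high in rat testis alone.

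Counted over the members, 5 of 8 in the marmoset and 6 of 8 in the rat reached 1 FPKM in at least 2 of the heart, kidney, liver and brain columns and were tested. FABP2, FABP6 and FABP9 were not tested in the marmoset, nor FABP6 and FABP9 in the rat. Marmoset FABP7, rat FABP2 and rat FABP7 passed this filter only through the organ or organs in which they are high, so the counts are a description. A result was called at an adjusted p under 0.05 and a difference of at least 1 log2 unit, and 37 of the 44 results were called. The results of a gene share the same tissue means, so a high organ by itself lowers the results of the others. Rat FABP2, at no more than 0.0655 FPKM outside liver, was thus called lower in heart, kidney and brain (-1.02, -1.08 and -1.04). The 44 are therefore not separate findings. In marmoset heart 3 members were higher, against 13.1% of all genes, and 2 lower (18.2%). In marmoset kidney 1 was higher (13.7%) and 4 were lower (9.89%), in liver 2 (21.3%) and 3 (16.5%), and in brain 1 (17.0%) and 2 (28.8%). In rat heart 2 were higher (16.7%) and 3 lower (17.3%), in kidney 1 (11.9%) and 3 (11.1%), in liver 3 (19.6%) and 2 (19.1%), and in brain 1 (17.6%) and 4 (27.1%). The members' median was 3.56 log2 units in marmoset heart, where that of all tested genes was -0.17, and -0.52 in rat heart against -0.11.

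**Figure D4:**
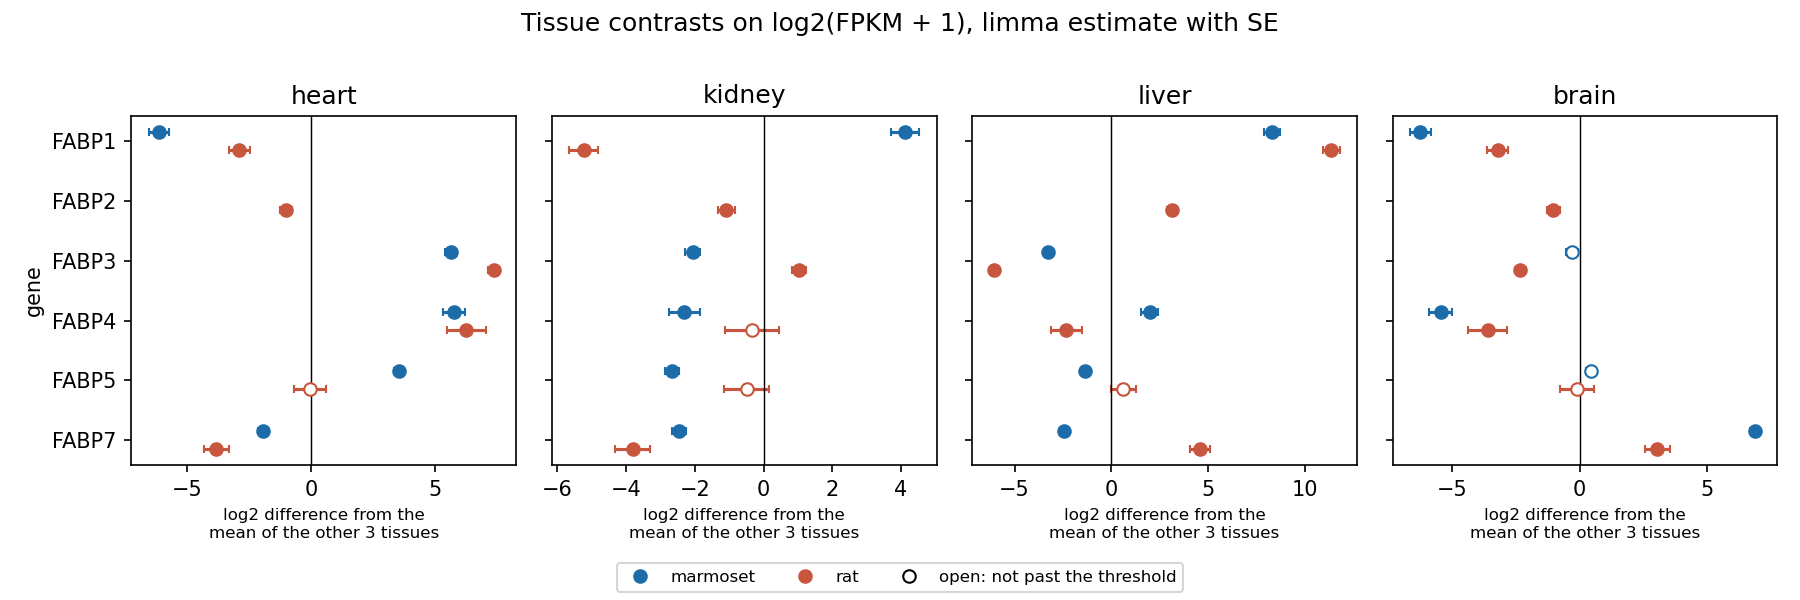
Log2 difference of each tissue from the mean of the other 3 (x axis) for the tested members (y axis), with SE bars, marmoset in blue and rat in red. Open symbols did not pass the threshold. FABP1 in kidney lies at 4.12 in the marmoset and -5.23 in the rat, on opposite sides of 0. In both species the mean that kidney is compared with includes liver.

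The female and male libraries differed in some members. Each sex is 1 animal, so sex and animal cannot be told apart and no p-value is given. Among member values of at least 1 FPKM in both libraries, the higher exceeded the lower by a median of 1.29-fold in the marmoset (14 pairs) and 2.36-fold in the rat (17 pairs). The pairs are several tissues of the same members and animals. No such median was taken over all genes, so these do not set the family or a species apart. The male minus female difference was -4.75 log2 units for rat FABP4 in kidney, -3.88 for rat FABP5 in liver and -2.398 for marmoset FABP4 in liver. Differences of at least 2 units were seen in 2.12% of all genes in rat kidney, 1.68% in rat liver and 5.68% in marmoset liver. No other tested member reached 2 units, where the share of all genes was 7.29% in marmoset heart, 2.94% in marmoset kidney, 0.437% in marmoset brain, 0.632% in rat heart and 0.536% in rat brain. None differed by at least 1 unit the same way in all 4 tissues, as 2.7% of marmoset and 0.11% of rat genes did. With 0.1 in place of 1 added to FPKM, FABP1 also passed 2 units, at 2.46 in marmoset heart and 3.06 in rat kidney.

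Beside FABP4 in rat kidney, FABP5 in rat liver and FABP4 in marmoset liver, some other genes moved the same way and others did not. In the rat kidneys the 6 adipocyte genes summed to 63.8 FPKM in the female and 16.7 FPKM in the male. ADIPOQ was at 22.6 and 3.09 FPKM there, CFD, the fat cell protease adipsin, at 30.2 and 1.22 FPKM, and PLIN1, which coats fat droplets, at 1.96 and 0.0326 FPKM. LIPE stood at 3.32 and 2.51 FPKM and the hormone gene LEP at 0.379 and 0.0264 FPKM, while CIDEC, also of fat droplets, was higher in the male, at 9.80 against 5.30 FPKM. In the rat livers CD36, the membrane transporter of fatty acids, was at 79.0 FPKM in the female and 6.15 FPKM in the male. The 6 adipocyte genes summed to 47.3 and 51.8 FPKM in those livers, and the 6 macrophage genes to 73.5 and 90.2 FPKM. In the marmoset livers CD36 was at 140.0 and 57.2 FPKM, CD163 of macrophages at 38.6 and 10.0 FPKM and MARCO at 3.72 and 0.139 FPKM, while the sum of the 5 macrophage genes was 689.9 and 679.5 FPKM and that of the 6 adipocyte genes 67.9 and 207 FPKM. The part of these cells in the differences was not tested.

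**Figure D5:**
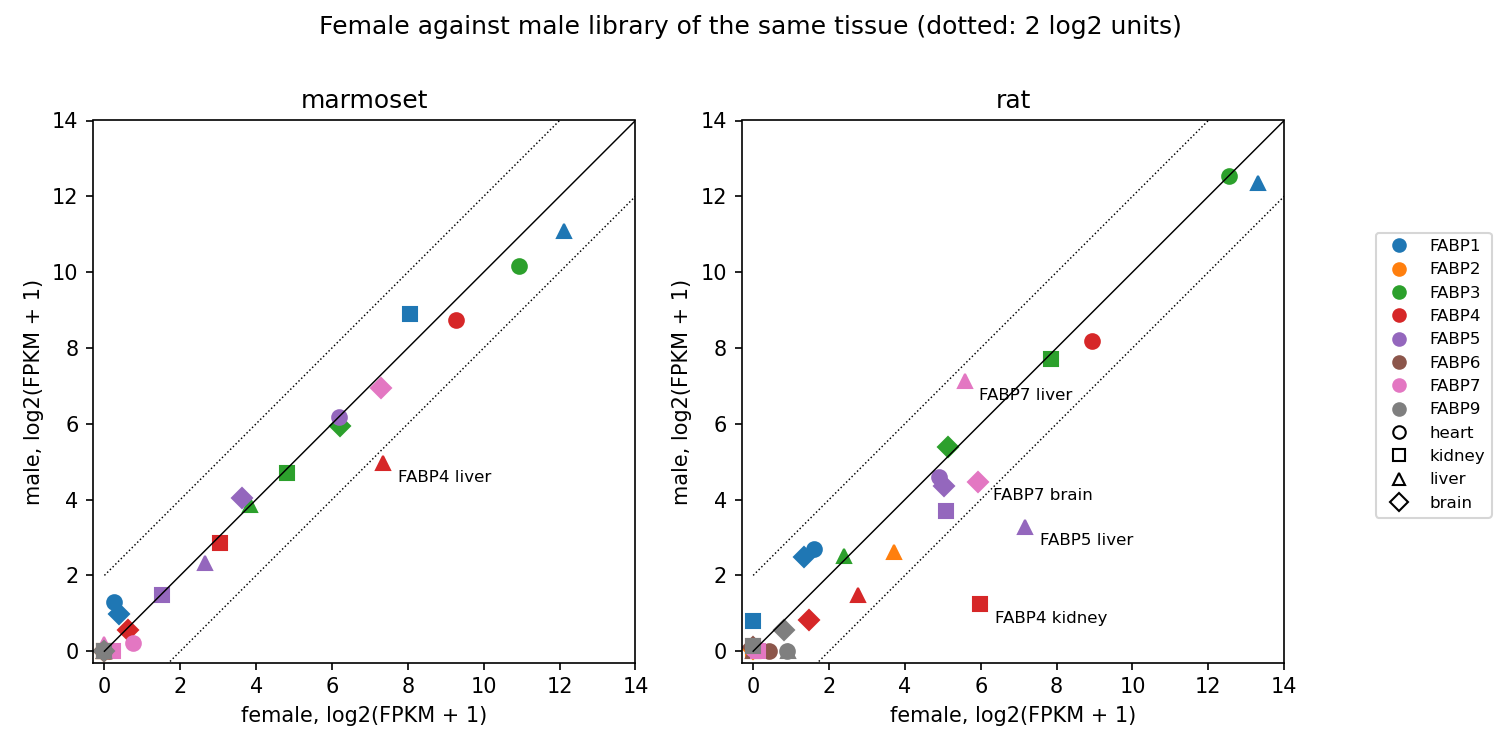
Log2(FPKM + 1) in the female (x axis) against the male library (y axis) of the same tissue, with members by colour and tissues by symbol. The solid line marks equality and the dotted lines a difference of 2 log2 units. FABP4 in marmoset liver, FABP4 in rat kidney and FABP5 in rat liver lie outside the dotted lines.

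The genes with the most similar profile were ranked by Pearson correlation of log2(FPKM + 1) over the 10 columns of a species, for members that reached 10 FPKM. The columns share animals and libraries, so r is a description. Marmoset FABP1 lay closest to DPYS (r = 0.996), of pyrimidine breakdown, KNG1 (0.996), the kininogen gene, and DIO1 (0.995), a thyroid hormone deiodinase, and rat FABP1 to AHSG (0.999), CRP (0.997) and ITIH4 (0.996), which encode plasma proteins. Rat FABP2 lay closest to the carboxylesterase CES2E, the sulfotransferase SULT2A6 and the histidine-degrading enzyme AMDHD1. FABP3 lay closest to PDE1C, NEK10 and EDARADD in the marmoset (r = 0.968 to 0.972) and to CLDN15, CAV1 and CAND2 in the rat (0.972 to 0.978). Marmoset FABP7 lay closest to SV2A, of synaptic vesicles, LSAMP and DPF1, and rat FABP7, with its liver and brain levels, to ST8SIA3, a sialyltransferase (0.996), PLEKHB1 and CABLES2. Rat FABP9 lay closest to ODF1 (0.998), ADAM3 (0.998), of the sperm surface, and RPL39L (0.998), and rat FABP6 to ZP3, of the egg coat (0.999), SPINK4 and SPRR2H. The neighbours of FABP4 and FABP5 were ASF1A (0.932), CAPG and BNIP2 for rat FABP4, NKAP (0.883), TRIM24 and SNUPN for rat FABP5, EIF2A (0.976), NSUN4 and ATG4A for marmoset FABP4, and TMEM242 (0.975), ATP2A2 and PHKB for marmoset FABP5.

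Genes of fatty acid uptake and activation, from a fixed list, differed by organ. Of 15 such genes in the marmoset, all tested, 5 were higher and 5 lower in heart, 2 and 4 in kidney, 9 and 1 in liver and 2 and 7 in brain. Of 14 tested in the rat these numbers were 5 and 5, 1 and 5, 6 and 3, and 4 and 8. Of all tested genes, 13.1% were higher and 18.2% lower in marmoset heart, 13.7% and 9.89% in kidney, 21.3% and 16.5% in liver and 17.0% and 28.8% in brain, and 16.7% and 17.3%, 11.9% and 11.1%, 19.6% and 19.1%, and 17.6% and 27.1% in the rat. The list's median over heart, kidney, liver and brain was -0.70, -0.485, 1.70 and -0.96 log2 units in the marmoset, where all tested genes had -0.17, 0.004, 0.06 and -0.34. The rat medians were -0.75, -0.52, 0.66 and -1.79, where all tested genes had -0.11, -0.07, -0.065 and -0.28. Heart was led by CD36, higher by 5.59 ± 0.29 in the marmoset and 6.33 ± 0.72 in the rat, and by LPL, the lipase that frees fatty acids from lipoproteins, higher by 5.51 ± 0.32 and 6.31 ± 0.28. CD36 stood at 610 and 482 FPKM in the marmoset hearts and 531 and 521 FPKM in the rat hearts, and at no more than 0.431 FPKM in any brain column. Rat liver was led by SLC27A5, the bile acid and fatty acyl-CoA synthetase, higher by 8.94 ± 0.17, and SLC27A2, a very long-chain synthetase, by 5.89 ± 0.33, while marmoset liver was led by ACSL5, a long-chain acyl-CoA synthetase, and SLC27A5, by 5.52 and 5.35. ACSL6, a synthetase abundant in brain, was higher in brain by 4.04 ± 0.28 and 3.68 ± 0.19.

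Lipolysis and lipid droplet genes were low in brain, where 7 of 11 tested fell in the marmoset and 9 of 11 in the rat, and none rose (medians -2.08 and -2.13, against -0.34 and -0.28 for all tested genes). In liver 7 and 6 of 11 were higher, led by DGAT2, of triglyceride synthesis (6.07 and 5.12), and CIDEC, of droplet fusion (4.73 and 3.95), with 1 lower in each species. In heart 6 of 11 were higher in the marmoset and 5 in the rat, led by PLIN4, a droplet coat protein (4.52 and 5.46), with 1 and 2 lower. In kidney 2 were higher and 4 lower in the marmoset, and 2 and 2 in the rat. Of all tested genes, 21.3% were higher and 16.5% lower in marmoset liver, and 19.6% and 19.1% in rat liver. In heart these shares were 13.1% and 18.2% in the marmoset and 16.7% and 17.3% in the rat. In kidney they were 13.7% and 9.89%, and 11.9% and 11.1%. In brain they were 17.0% and 28.8%, and 17.6% and 27.1%. Among 8 nuclear receptor genes and cofactors, 6 fell in brain in each species and none rose, where 28.8% of all marmoset and 27.1% of all rat genes fell. The median of the 8 in brain was -2.14 log2 units in the marmoset and -1.71 in the rat. PPARA, the receptor served by FABP1, was higher in marmoset liver by 1.39 ± 0.18 and in rat heart by 2.01 ± 0.24, and at 0.11 ± 0.24 in rat liver it did not pass. PPARG, the receptor of fat cells, was highest in the ovary column of both species, at 25.6 FPKM in the marmoset and 10.8 FPKM in the rat.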

How the data were processed

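Polyadenylated RNA was sequenced from 31 samples, of which the 3 elephant samples were not used. The tools named in the submitters' processing notes are TopHat (1.4.0) and Cufflinks (2.0.0), with no settings or roles. The deposited values are FPKM by the authors, in 1 table per species, normalized across tissues. For that method, the builds and the annotations, nothing is stated in the sources used here. The 8 wallaby columns that hold no value above 0 were not used. The members and gene lists were chosen with earlier results of these data known. Genes with at least 1 FPKM in 2 libraries of heart, kidney, liver and brain were tested with limma 3.58.1 in R 4.3.3 on log2(FPKM + 1), which understates changes of low genes. The fit had a mean-variance trend and an animal term, with 2 libraries a tissue and 1 animal a sex, and compared each tissue with the mean of the other 3. P-values were adjusted by Benjamini-Hochberg over 15100 marmoset and 14560 rat genes, and measure the spread between these libraries only. The fit was also run on simulated data with changes in higher genes only. The noise there was set below the spread between the 2 libraries of a tissue, so that run gives no error rate for these data. The animal term was kept because libraries of the same animal, by the labels, deviated together (r between tissues from 0.541 to 0.716 in the marmoset and 0.143 to 0.506 in the rat). Gonads, sexes and wallaby had 1 column per group and no test: genes were counted at a distance of 2 log2 units. Named were all members, examples from the lists, CD36, PPARA, PPARG, PMP2, FABP12 and the 3 nearest profiles of each member. The examples were mostly the largest higher changes of a tissue, and the smallest and the lower changes were mostly left out. LOC names were read through RefSeq gene IDs for 6927 marmoset genes. Of these, 96.8% of the genes also in an Ensembl name table had the same symbol, and 84.4% of the genes placed on a chromosome in both sources were on the same one.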

Additional observations from a re-analysis of the deposited data

Results flagged for a closer look

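FABP1 and FABP7 had a male minus female difference of at least 1 log2 unit in opposite directions in different organs of one species. Marmoset FABP1 was higher in the male heart by 1.06 (1.47 against 0.186 FPKM) and lower in the male liver, at -1.01 (2179.8 against 4401 FPKM). Rat FABP7 was higher in the male liver by 1.54 (138 against 46.7 FPKM) and lower in the male brain, at -1.46 (21.3 against 60.1 FPKM). Each value rests on 1 library per sex and the difference between organs was not tested. In the rat brain columns the 6 cerebellar neuron genes summed to 114 FPKM in the female and 683 FPKM in the male, the 4 oligodendrocyte genes to 2910 and 449 FPKM and the 6 astrocyte genes to 397 and 315 FPKM, and their part in the FABP7 difference was not tested.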

How the results depend on the processing

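Of the 44 member results, 30 kept their direction and side of the threshold in every alternative run in which the gene was tested. Runs in which a gene fell under the filter were not counted. Marmoset FABP7 and rat FABP2 had 6 leave-one-out runs in place of 8. The missing runs left out a brain library for marmoset FABP7 and a liver library for rat FABP2. Marmoset FABP7 was also not tested without brain. Under quantile normalization the sign turned for marmoset FABP3 in brain (0.83), rat FABP4 in kidney (0.0139), rat FABP5 in liver (-0.0148) and rat FABP5 in brain (0.67), and under median scaling for marmoset FABP3 (0.0797) and rat FABP5 (0.29) in brain. Leaving out 1 library at a time gave ranges that crossed 0 for rat FABP4 in kidney (-2.27 to 1.60) and rat FABP5 in heart (-0.87 to 0.81), kidney (-1.0 to 0.0269), liver (-0.93 to 2.17) and brain (-0.69 to 0.49), and took the count of called genes in marmoset kidney from 3562 to between 2021 and 3626, the lowest without the library labelled male kidney. Without it, without the female kidney (2272) and in the other runs that leave out a library, the lone library of a tissue is assumed to vary like the others. Calls of rat FABP2 in heart, kidney and brain, rat FABP3 in kidney, rat FABP4 in liver and brain, marmoset FABP4 in liver and marmoset FABP4 in kidney (limma adjusted p = 0.113 without the female kidney) were also lost in at least 1 such run. Without the animal block 43 of 44 results were unchanged in call, and rat FABP4 in liver kept its estimate of -2.32 with a limma adjusted p of 0.116. With a pseudocount of 0.1 the genes at least 2 units from all somatic columns numbered 1084 in place of 686 in marmoset testis, 273 in place of 110 in marmoset ovary and 272 in place of 104 in rat ovary, and genes differing by sex in all 4 tissues 744 in place of 408 in the marmoset and 49 in place of 16 in the rat. At a distance of 1 unit the testis and ovary counts were 2019 and 523 in the marmoset and 4161 (in place of 2220) and 435 in the rat, and quantile normalization gave 167 and 159 for the ovaries. Other scalings moved the median of all genes by up to 0.39 and the share of higher calls from 56.4% to 43.7% (quantile) and 40.7% (median) in marmoset liver and, under median scaling, from 37.1% to 52.9% in marmoset brain, from 50.5% to 37.7% in rat liver and from 39.4% to 55.9% in rat brain. With a pseudocount of 0.1, male minus female was 2.46 for marmoset FABP1 in heart and 3.06 for rat FABP1 in kidney. Testis minus liver was then 2.04 for wallaby FABP5 and -2.01 for wallaby FABP6, the latter under 5 FPKM in both tissues. All of these were within 2 units in the main run. Depth is unknown, so members near 0 have no counting limit.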

Other observations

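Some cellular retinoid binding proteins, which share their fold with the fatty acid carriers, also differed by organ. RBP7 was higher in heart by 2.89 ± 0.72 log2 units in the marmoset and 3.61 ± 0.45 in the rat (limma adjusted p = 0.0165 and 0.000888). RBP5 stood at 67.7 to 301 FPKM in the marmoset heart, kidney and liver columns and at no more than 0.273 FPKM in brain. CRABP2, a retinoic acid carrier, stood at 144 FPKM in the rat ovary, the column with FABP6, and at no more than 5.55 FPKM in the other 9 rat columns. In the marmoset ovary CRABP2 was at 1.31 FPKM.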
